A study of Mus musculus with 16 samples.

Results

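10 genes of the endothelial glycocalyx were followed in RNA-seq of mouse pulmonary endothelial cells (ECs): the syndecans Sdc1, Sdc2, Sdc3 and Sdc4, the glypican Gpc1, the perlecan gene Hspg2, the hyaluronan synthases Has1 and Has2, the hyaluronan receptor Cd44 and the heparanase Hpse. They were taken by name from the 54532 genes in each table, and all 10 were present. In the first experiment, male wild-type C57/BL6J mice of 8 weeks received saline (n = 4) or 10 mg/kg lipopolysaccharide (LPS, n = 6) into the trachea. In the second, Fgfr1 loxP/loxP littermates (n = 3) and Fgfr1 iΔEC/iΔEC mice (n = 3), which carry the floxed Fgfr1 alleles together with a tamoxifen-inducible VE-cadherin-CreERT2, all received tamoxifen and 2 mg/kg LPS, so this experiment holds no saline group. All lungs were taken at 24 h, and ECs were isolated with magnetic beads, first removing CD45+ cells and then capturing CD31+ cells. Fgfr1 loss is limited to cells in which the VE-cadherin promoter drives Cre. The mice of the second experiment were adults, and their sex is not given in the sources used here. Nothing in the labels says that each library came from a separate mouse, so p-values measure the spread between these samples. The shallowest library held 13478726 reads on genes and the deepest 19043015.

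The glycocalyx is the sugar-rich coat on the luminal face of the endothelium. Syndecans, which span the membrane, and glypicans, which are held in it by a lipid anchor, carry heparan sulfate chains, while perlecan carries such chains in the basement membrane and hyaluronan is a free chain made at the cell surface and bound by CD44. Heparanase cuts heparan sulfate, the coat is known to be shed in inflamed lungs, and heparan sulfate also serves as a co-receptor that helps fibroblast growth factors bind receptors such as FGFR1.

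LPS was accompanied by a changed composition of these genes. Cd44, Sdc4, Hpse and Sdc1 rose, Sdc2 and Hspg2 fell, Gpc1 did not pass the test, and Sdc3 rose by a small amount that turned to -0.018 on the log2 scale under quantile normalization. The unit is FPKM, a read number divided by gene length and by library size, which allows levels of different genes to be compared. Differences were tested as log2(FPKM + 1) with limma over all genes, which understates the change of genes with low values, and genes whose p, adjusted after Benjamini and Hochberg, was at most 0.05 were called. Of the 10 genes, 8 had a mean of at least 0.5 FPKM and were tested, of which 5 were called higher and 2 lower. Over all 14893 genes tested, 53.2% were called, 29.5% higher and 23.7% lower, so a called gene was common in this comparison. The split over all genes turned to 3464 higher and 4678 lower with scaling on total reads and to 7433 and 724 with scaling on the endothelial markers, from 4399 and 3529. With a further limit of 1 on the absolute log2 difference, 18.7% of all genes and 5 of the 8 were called (Cd44, Sdc4, Hpse and Sdc1 higher, Sdc2 lower). The median log2 difference was 0.85 for the 8 genes and 0.01 for all genes tested.

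All isolates held endothelial markers at a high level, and the LPS libraries also held many transcripts of myeloid markers. Cldn5, the endothelial tight junction gene, was the most abundant of the 11 endothelial markers in every library, and none of the 11 was listed at 0. The summed FPKM of the endothelial markers had a median of 4214 in saline and 3229 in LPS, and 7 of the 11 fell and 0 rose. With scaling on total reads 8 fell, and under quantile normalization all 11 did. Scaling on these markers themselves gave 2 higher and 1 lower. The 6 general leukocyte markers, led by Tyrobp in LPS, summed to 106 to 320 FPKM in the saline libraries and to 1009 to 2439 in the LPS libraries, and all 6 rose. The neutrophil markers, led by S100a9, had a median sum of 187 FPKM in saline and 2575 in LPS, with 6 of 8 called higher and 1 lower. The macrophage markers, led by Lyz2, had medians of 603 and 3202 FPKM, again with 6 of 8 called higher and 1 lower. The macrophage sum exceeded the endothelial sum in LPS 1 (4055 against 1625 FPKM), LPS 3 (2577 against 2448) and LPS 5 (3709 against 2925), and the neutrophil sum did so in LPS 1 (2696 FPKM) and LPS 2 (6599 against 3797). A single gene carried most of these sums: without Lyz2 the macrophage sums of LPS 1, LPS 3 and LPS 5 were 744, 518 and 616 FPKM, and without S100a9 the neutrophil sums of LPS 1 and LPS 2 were 1077 and 2244 FPKM. The mean log2(FPKM + 1) of the endothelial list was above that of the macrophage and neutrophil lists in every LPS library, but the leukocyte list was above the endothelial list in LPS 1 (8.09 against 6.64), LPS 2 (7.85 against 7.61), LPS 3 (7.56 against 7.31) and LPS 5 (7.70 against 7.41). LPS 4 and LPS 6 also held leukocyte sums above all saline libraries (1779 and 1009 FPKM). In every LPS library the markers thus went against a purely endothelial label. The saline libraries were not purely endothelial by their markers either, with Sftpc, an epithelial marker, at 799 to 1971 FPKM. In bulk RNA, fewer cells of a type and less RNA per cell cannot be told apart, and the part of these cells in the results below was not tested.

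The other marker lists follow. The epithelial markers, led by Sftpc, had a median sum of 1811 FPKM in saline and 739 in LPS, with 3 of 10 called lower. The fibroblast markers, led by Col3a1 in most libraries, had medians of 61.7 and 30.3 FPKM with 5 of 6 tested genes lower, the mural markers, with Acta2 leading in LPS, 60.8 and 56.9 with 3 of 7 lower, the lymphocyte markers, led by Cd79a, 106.7 and 25.0 with 3 of 5 lower, the plasma cell markers, led by Pou2af1, 21.7 and 6.00 with 1 of 4 lower, and the mesothelial markers, led by Krt19 in most, 11.9 and 6.28 with 1 of 2 lower. The erythroid markers, led by Hba-a1 in most, had medians of 12.9 and 43.8 FPKM, with 3 of 4 higher. These calls turned with the scaling: on the endothelial scale fibroblast markers had 1 call, lower, epithelial markers 2 higher and 1 lower, mural markers 1 higher, lymphocyte markers 1 lower and plasma cell markers 0. Tnfrsf17, which marks plasma cells, was listed at 0 in 3 of 4 saline and 5 of 6 LPS libraries, and Wt1, which marks mesothelium, in 4 of 4 and 4 of 6. The library saline 1 stood apart with a neutrophil sum of 1376 FPKM, where the other saline libraries held 69.4, 300.5 and 74.0. Among the saline libraries, saline 3 had the fewest lymphocyte and plasma cell transcripts. The counts of called glycocalyx genes, 5 higher and 2 lower, were the same without these 2 libraries, an alternative chosen after seeing the data.

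Among the members that carry heparan sulfate, the syndecans differed in direction. Sdc4, a broadly expressed syndecan that sits at focal adhesions, measured 19.4, 11.6, 11.4 and 10.7 FPKM in the saline libraries and ranged from 36.7 to 65.2 FPKM around a median of 53.0 in LPS. Every LPS library lay above every saline library. On the log2 scale it rose by 1.86 ± 0.20 (SE), with an adjusted p of 3.13e-05 in limma and p = 0.00476 in the two-sided exact permutation test, the smallest that 4 against 6 libraries allow. The ratio of mean FPKM was 3.80. Groups that do not overlap were also found for 39.4% of all genes tested, 22.7% higher and 16.7% lower in LPS, beside 3 and 1 of the 8 tested members.

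Sdc1, the syndecan best known from epithelium and plasma cells, measured 13.9, 4.66, 5.81 and 4.24 FPKM in saline and 10.3 to 23.6 FPKM in LPS, with a median of 17.5. The groups overlapped through saline 1, which exceeded the 2 lowest LPS libraries. The log2 difference was 1.26 ± 0.30 (SE, adjusted p = 0.00508 in limma), and it was 1.59 without saline 1. In the same libraries the summed epithelial and plasma cell markers had lower medians in LPS. Sftpc carried most of the epithelial sum in saline, and 7 of 10 epithelial and 3 of 4 plasma cell markers tested were not called. The leukocyte and macrophage markers had higher medians (146 and 1872 FPKM, 603 and 3202 FPKM). The part of these cells in the Sdc1 values was not tested.

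Sdc2, a syndecan of mesenchymal and endothelial cells, went the other way. It measured 5.87, 7.46, 4.06 and 8.20 FPKM in the saline libraries and 1.00 to 2.80 FPKM, median 1.80, in the LPS libraries. All LPS libraries lay below all saline libraries, with a log2 difference of -1.36 ± 0.20 (SE), an adjusted p of 0.000262 in limma and an exact permutation p of 0.00476. Mean Sdc2 in LPS was 0.291 of the saline mean. Among markers of cell types that express Sdc2, 5 of 6 tested fibroblast and 7 of 11 endothelial markers were called lower in the same libraries. The part of these cells in the Sdc2 values was not tested.

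Sdc3, which is best known from nerve and muscle, was the most abundant of the 4 syndecans in saline, at 50.6, 40.2, 43.4 and 42.5 FPKM. In LPS it ranged from 49.0 to 73.1 FPKM with a median of 62.3, and saline 1 reached into that range. The log2 difference of 0.45 ± 0.13 (SE, adjusted p = 0.0131 in limma) was 0.25 with scaling on total reads (adjusted p = 0.138) and -0.018 under quantile normalization (adjusted p = 0.932), while its adjusted p ranged from 0.00240 to 0.932 over 23 alternatives. With scaling on the endothelial markers the difference was 1.19. Its size therefore depended on the scaling, and its sign turned only under quantile normalization, at a value near 0.

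**Figure D1:**
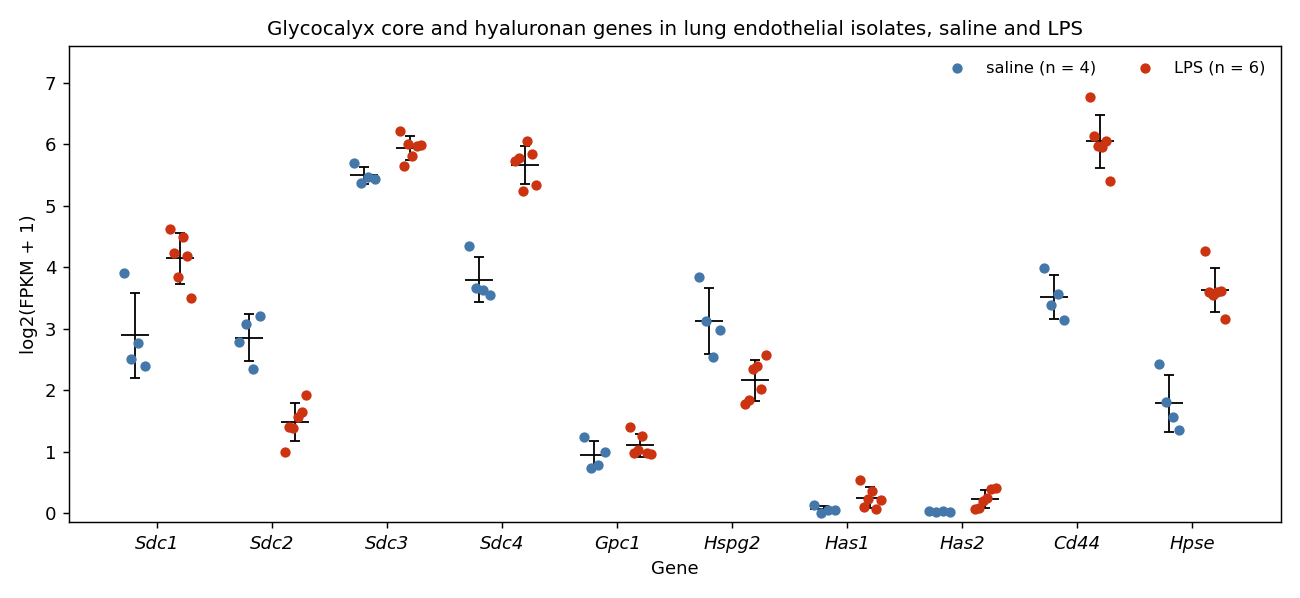
Level of each of the 10 genes in every library of the first experiment, as log2(FPKM + 1). Each point is a library, blue for saline (n = 4) and red for LPS (n = 6), and the black bars give the mean ± SD. The groups do not overlap for Sdc2, Sdc4, Has2, Cd44 and Hpse, and the Sdc3 difference is -0.018 under quantile normalization.

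Summed over the 4 syndecans, the median was 65.2 FPKM in saline and 129.8 FPKM in LPS, a comparison that depends on scaling. The shares of each syndecan in that sum are read inside each library, where scaling between libraries has no part. Sdc3 made up 56.3% to 67.1% in saline and 38.2% to 55.0% in LPS. Sdc4 made up 16.3% to 21.6% in saline and 32.0% to 45.4% in LPS. The share of Sdc2 had a median of 9.10% in saline and 1.39% in LPS, and for these 3 genes the shares of the groups did not overlap. The share of Sdc1 did overlap, with medians of 8.13% and 13.5%. The ratio of Sdc4 to Sdc2 had a median of 2.19 in saline and 29.6 in LPS, with 3.30 as the highest saline value.

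**Figure D2:**
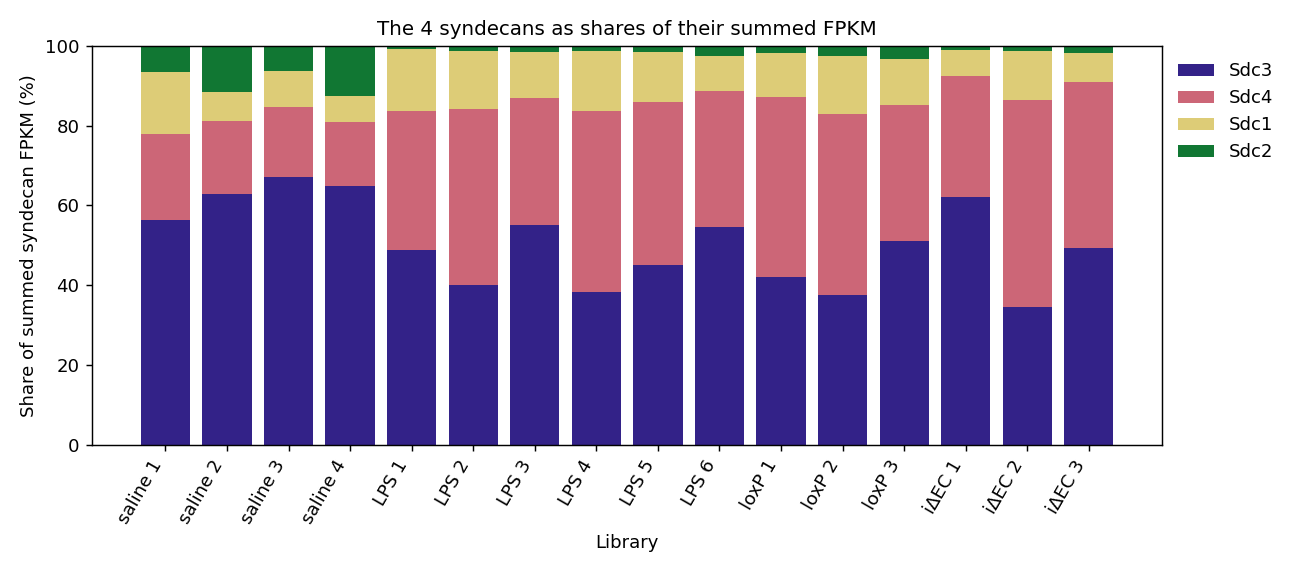
Shares of Sdc3, Sdc4, Sdc1 and Sdc2 in the summed syndecan FPKM (%) of each of the 16 libraries, 1 stacked bar a library. The Sdc4 segment takes 16.3% to 21.6% in saline and 32.0% to 45.4% in LPS, and the Sdc2 segment narrows from a median of 9.10% to 1.39%.

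Gpc1, the lipid-anchored core protein known as the endothelial glypican, was low throughout, at 1.35, 0.657, 0.727 and 0.995 FPKM in saline and 0.957 to 1.65 FPKM in LPS. Its log2 difference was 0.17, with a 95% confidence interval from -0.15 to 0.48 and an adjusted p of 0.345 in limma, on 67 to 157 reads per library. Hspg2, which encodes the basement membrane proteoglycan perlecan, measured 13.4, 7.70, 4.83 and 6.88 FPKM in saline and 2.42 to 4.95 FPKM in LPS, with a median of 3.56. Only saline 3 came down into the LPS range. The log2 difference was -0.97 ± 0.24 (SE, adjusted p = 0.00627 in limma), it was -0.72 without saline 1, and it lost its call when the libraries were scaled on the endothelial markers (-0.34, adjusted p = 0.266, over a range of 0.00213 to 0.266 in 23 alternatives).

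Of the hyaluronan genes, Cd44 changed most in FPKM. Cd44, a cell surface receptor that binds hyaluronan on leukocytes as well as on ECs, measured 14.9, 9.44, 10.8 and 7.84 FPKM in saline and 41.5 to 107.8 FPKM, median 63.7, in LPS. The lowest LPS library lay well above the highest saline library. On the log2 scale Cd44 rose by 2.53 ± 0.24 (SE, adjusted p = 1.27e-05 in limma), the exact permutation p was 0.00476, and the ratio of mean FPKM was 6.31. Within LPS, Cd44 was lowest in LPS 6, which also had the lowest leukocyte sum (1009 FPKM), and it was highest in LPS 1, whose leukocyte sum was 2429 FPKM. LPS 2, with a leukocyte sum of 2439 FPKM, had the second highest Cd44 value, 69.0 FPKM. The part of leukocytes in the Cd44 values was not tested.

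Has1 and Has2, which encode membrane enzymes that spin out hyaluronan, lay under the limit of 0.5 FPKM in both groups and had no place in the fit. Has2 had 1, 1, 2 and 1 reads in the saline libraries and 4, 4, 11, 14, 24 and 26 reads in the LPS libraries. The groups did not overlap, the exact permutation p was 0.019, and reads per library, after the scaling of the deposited values, were 11.3 times as many in LPS, with an exact 95% interval of 4.64 to 35.6 that covers counting error only. Has1 had 6, 0, 3 and 3 reads in saline and between 4 and 38 in LPS. Its groups overlapped (exact permutation p = 0.0762) and the ratio was 5.48, with an interval of 3.00 to 10.98, and 8.98 without saline 1. The antisense gene Has2os overlaps Has2 on the opposite strand and was listed at 0 in the saline libraries and at a mean of 0.0744 FPKM in LPS. Whether counting used strand is not given in the sources used here, so reads of the 2 cannot be told apart where they overlap.

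Hpse, the endoglucuronidase that trims heparan sulfate and is made by leukocytes and ECs, measured 4.36, 2.48, 1.94 and 1.56 FPKM in saline and 7.91 to 18.3 FPKM in LPS, with a median of 11.1. All LPS libraries were above all saline libraries. Hpse rose by 1.84 ± 0.23 on the log2 scale (SE, adjusted p = 8.94e-05 in limma, exact permutation p = 0.00476), and the ratio of mean FPKM was 4.52. As with Cd44, but also with Sdc1 and the uncalled Gpc1, the lowest LPS value was that of LPS 6 and the highest that of LPS 1. The part of leukocytes in the Hpse values was not tested.

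The order of the levels changed accordingly. In saline the mean FPKM ran from Sdc3 (44.2) through Sdc4 (13.3), Cd44 (10.7), Hspg2 (8.19), Sdc1 (7.16) and Sdc2 (6.40) to Hpse (2.59), Gpc1 (0.932), Has1 (0.0428) and Has2 (0.0167). Only the steps from Sdc3 to Sdc4, from Hpse to Gpc1 and from Gpc1 to Has1 had ranges that did not overlap. In LPS, Cd44 (67.8), Sdc3 (60.8) and Sdc4 (50.6) formed a leading group whose neighbours overlapped, ahead of Sdc1 (17.3), Hpse (11.7), Hspg2 (3.55), Sdc2 (1.86), Gpc1 (1.16), Has1 (0.197) and Has2 (0.180).

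The genes lie on chromosomes 12 (Sdc1), 15 (Sdc2 and Has2), 4 (Sdc3 and Hspg2), 2 (Sdc4 and Cd44), 1 (Gpc1), 17 (Has1) and 5 (Hpse), with the same boundaries in the tables and in GENCODE M21 on GRCm38. RefSeq promoter windows of 300 bases (250 before and 50 from the start, GRCm38.p6) were matched for 7 of the 10. The FOS/JUN motif TGANTCA, present on either strand in 7.81% of 32851 windows, was in 0 of the 7, which says only that these letters are not there. The GC box GGGCGG, a motif chosen after seeing the data and present in 32.7% of all stretches of 250 bases before a start, was found there in 5 of the 7, namely in Hspg2 (5 matches), Sdc4 (4), Sdc1 (3), Sdc3 (3) and Hpse (1), and not in Cd44 or Has1. Over the full 300 bases, where 35.7% of all windows hold it, Cd44 has 1 match as well, past the start, and Has1 has 0. The stretches of the 3 tested members that rose without overlap of the groups are shown 5′ to 3′ on the gene's strand, with GC boxes of either strand in capitals: Cd44 at chr2:102901666-102901915, Hpse at chr5:100719717-100719966 and Sdc4 at chr2:164443189-164443438, all on the minus strand and outside the exons of GENCODE M21.
Cd44: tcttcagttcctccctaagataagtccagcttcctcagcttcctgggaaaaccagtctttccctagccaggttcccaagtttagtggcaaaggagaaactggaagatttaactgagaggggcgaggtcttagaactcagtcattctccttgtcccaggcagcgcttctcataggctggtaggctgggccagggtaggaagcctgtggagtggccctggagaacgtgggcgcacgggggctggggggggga
Hpse: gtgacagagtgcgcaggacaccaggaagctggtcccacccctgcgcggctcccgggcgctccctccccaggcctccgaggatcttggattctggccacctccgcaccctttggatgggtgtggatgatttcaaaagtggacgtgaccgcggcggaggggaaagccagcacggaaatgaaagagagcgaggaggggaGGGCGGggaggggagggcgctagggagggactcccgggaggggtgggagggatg
Sdc4: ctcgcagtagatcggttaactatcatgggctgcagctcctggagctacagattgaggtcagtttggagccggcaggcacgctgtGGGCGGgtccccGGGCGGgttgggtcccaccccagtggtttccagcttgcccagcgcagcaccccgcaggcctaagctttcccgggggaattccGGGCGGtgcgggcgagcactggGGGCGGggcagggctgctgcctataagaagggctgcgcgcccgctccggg
The Cd44 and Hpse stretches end at the base before the gene boundary in the tables, and that of Sdc4 ends 699 bases inside it. A match is a description of letters only, and genes that rose and the falling Hspg2 both hold it.

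Related genes were described from 4 lists. Of all genes tested, 29.5% were called higher and 23.7% lower, and the counts below turn with the scaling. Of 15 other core proteins tested, 4 rose, 7 fell and 4 did not pass, with 7 higher and 3 lower on the endothelial scale. Col18a1, a heparan sulfate proteoglycan of the basement membrane, had a mean of 4.53 FPKM in saline and 27.96 in LPS (log2 difference 2.43, adjusted p = 0.000135 in limma). Vcan, the chondroitin sulfate proteoglycan versican (1.60), and Srgn, the granule proteoglycan serglycin of blood cells (1.59), also rose on the log2 scale. Esm1, an endothelial dermatan sulfate proteoglycan (-1.94), the glypican Gpc3 (-1.42) and Tgfbr3, the TGF-beta co-receptor betaglycan (-1.30), fell. The median over the list was -0.19, beside 0.01 for all genes tested. In the same libraries all 6 general leukocyte markers were called higher, while 3 of 5 tested lymphocyte markers were called lower.

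Of the 21 genes of heparan sulfate chain synthesis tested, 5 rose, 3 fell and 13 did not pass the threshold, and the median log2 difference was -0.09. These counts were 2 higher and 8 lower with scaling on total reads, and 10 higher and 0 lower on the endothelial scale. The largest fall was that of Hs3st1, a sulfotransferase that acts late in chain modification, from a mean of 60.8 to 26.2 FPKM (-1.06, adjusted p = 0.0252 in limma). Papss2, which makes the sulfate donor (0.90), the linker enzyme B3galt6 (0.58) and Slc35b2, which carries the donor into the Golgi (0.49), rose. Xylt2, which starts the chain (-0.51), and the sulfotransferase Hs2st1 (-0.49) fell, and both were above 0 when the libraries were scaled on the endothelial markers.

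Of the 18 genes for heparan sulfate removal and shedding tested, 10 rose, 5 fell and 3 did not pass, with a median log2 difference of 0.57. The counts were 8 and 5 with total reads and 12 and 2 on the endothelial scale. On the endothelial scale most calls over all genes were higher too, with a median log2 difference of 0.59. The split there is therefore not particular to this list. Timp1, an inhibitor of metalloproteinases, had a mean of 1.33 FPKM in saline and 52.9 in LPS (log2 difference 4.53, adjusted p = 1.10e-06 in limma). The metalloproteinases Mmp9 (2.54), a gene of neutrophil granules, and Mmp14 (2.38) and the lysosomal glucuronidase Gusb (1.67) rose, while Sulf1, which removes sulfate groups at the cell surface (-1.20), and the inhibitor Timp2 (-1.15) fell. The list thus held rising and falling members among the inhibitors themselves. Of the markers of macrophages, cells rich in lysosomal enzymes, 6 of 8 were called higher and 1 lower in the same libraries. The part of these cells was not tested.

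Of the hyaluronan list, 9 of 25 genes in the table were tested, with 3 higher, 3 lower and 3 not past the threshold. The split was 3 higher and 5 lower with total reads, where 11 genes passed the expression limit, and 6 higher and 0 lower on the endothelial scale, where 10 did. Those that rose included Hexa, a gene of a lysosomal enzyme (1.20), and Itih4, of the inter-alpha-trypsin inhibitor family (0.93). Tmem2, a cell surface hyaluronidase, had a mean of 89.0 FPKM in saline and 43.9 in LPS (-1.06, adjusted p = 0.00344 in limma). The hyaluronan receptor Layn (-0.76) and the scavenger receptor Stab1 (-0.53) fell as well, and Stab1 was above 0 with scaling on the endothelial markers.

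**Figure D3:**
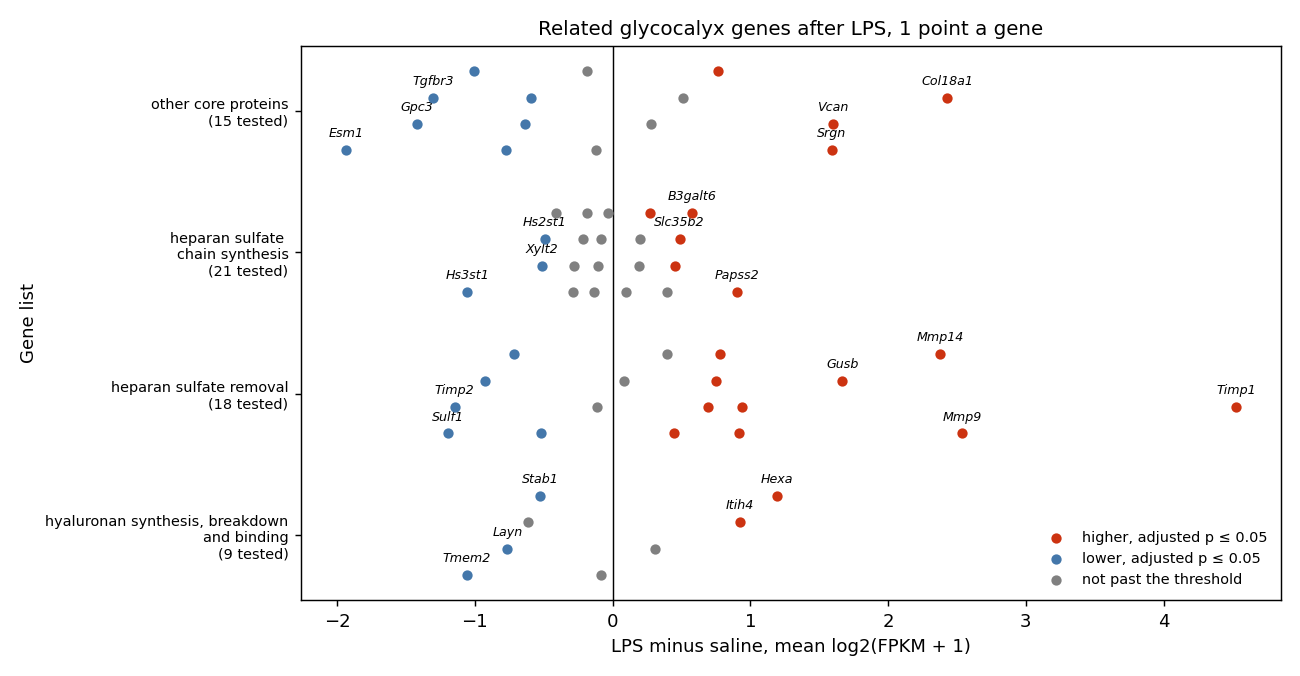
Log2 difference, LPS minus saline, of the tested genes in the 4 lists of related genes other than 1 not shown in the hyaluronan list, 1 point a gene spread vertically for legibility. Red points rose and blue points fell at an adjusted p at or under 0.05, grey points did not pass, and up to 6 of the largest called differences of each list are named, of which Xylt2, Hs2st1 and Stab1 change sign with scaling on the endothelial markers.

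For each tested member the 2 genes of most similar profile were named by Pearson's r over the 10 libraries of the first experiment. These libraries differ in treatment and depth, so any gene that follows LPS can rank high. They were Plp2 (0.988) and Ppp3r1 (0.985) for Sdc1, Prelp (0.992) and Foxf2 (0.988) for Sdc2, Pacs2 (0.989) and Tab2 (0.976) for Sdc3, and Tcp1 (0.997) and Psmd11 (0.997) for Sdc4. For Cd44 they were Pfkfb4 (0.998) and Sema4a (0.997), for Hpse Rap2c (0.997) and Vill (0.993), for Hspg2 Fchsd2 (0.986) and Glis3 (0.975), and for Gpc1 1110008L16Rik (0.910) and Axin1 (0.879). Gpc1, the member without a call, had the lowest of these values.

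The second experiment compared LPS-treated mice with and without endothelial deletion of Fgfr1. Fgfr1 itself measured 2.90, 2.91 and 2.60 FPKM in Fgfr1 loxP/loxP and 0.682, 1.41 and 1.15 FPKM in Fgfr1 iΔEC/iΔEC libraries. All 3 deleted libraries lay below all 3 controls at a mean of 0.386 of the control level, so Fgfr1 transcripts remained, with a log2 difference of -0.88 and an exact permutation p of 0.1, the smallest that 3 against 3 allow, while the adjusted p over all genes was 0.962 in limma. The labels were therefore not contradicted by the targeted gene. In the first experiment Fgfr1 measured 2.82 to 5.52 FPKM in saline and 1.05 to 2.55 FPKM in LPS (log2 difference -0.70, adjusted p = 0.0113 in limma, -0.17 with an adjusted p of 0.452 when scaled on the endothelial markers, over a range of 0.00289 to 0.452 in 23 alternatives).

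In this comparison 0 of 14945 genes, 0%, were called by limma, with 661 genes (4.42%) at an unadjusted p under 0.05, and limma-voom on read numbers also left all members without a call. Of the 8 tested members, 1 had an unadjusted p under 0.05, and 0 had groups that did not overlap, beside 10.1% of all genes tested, 6.02% higher and 4.09% lower. The median log2 difference of the members was -0.16, beside 0.01 for all genes.

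The 1 member was Sdc2. It measured 1.60, 2.48 and 2.64 FPKM in Fgfr1 loxP/loxP and 0.809, 1.25 and 1.67 FPKM in Fgfr1 iΔEC/iΔEC libraries, and it was lower in each of the 3 pairs with the same number. The groups overlapped by a narrow margin, since the third deleted library was just above the first control. The log2 difference was -0.53 with a 95% interval from -1.02 to -0.05 (p = 0.0349 and adjusted p = 0.962 in limma, exact permutation p = 0.2). The pairing by number is only a hint from these same data. With the replicate number as a block the unadjusted limma p was 0.00652 and the adjusted p 0.555. The adjusted p ranged from 0.555 to 1.00 in 18 alternatives, so the difference failed the correction in each.

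Other heparan sulfate members gave wide intervals. Hspg2 measured 9.61, 12.9 and 5.97 FPKM in controls and 3.88, 7.42 and 7.21 FPKM in deleted libraries (log2 difference -0.54, interval -1.29 to 0.21). Sdc1 measured 10.5, 13.5 and 9.02 FPKM against 5.32, 13.5 and 7.22 FPKM (-0.38, interval -1.13 to 0.37). In both genes the first deleted library was the lowest of the 6, and the groups overlapped. That library also had the lowest epithelial and plasma cell sums, 498 and 16.2 FPKM, where the controls held 980 to 2972 and 41.2 to 90.2 FPKM. Its leukocyte (434 FPKM), neutrophil (742), macrophage (894), fibroblast (11.8) and mural (48.1) sums were the lowest of the 6 too. Its endothelial sum (4196 FPKM) was the highest. The part of these cells in the Sdc1 and Hspg2 values was not tested.

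Sdc3, at 39.9, 35.4 and 40.4 FPKM in controls and 50.3, 37.2 and 47.8 FPKM in deleted libraries, had a log2 difference of 0.21 (interval -0.13 to 0.55), which was -0.10 with scaling on the endothelial markers. It was higher in the deleted library of each of the 3 same-numbered pairs. Sdc4 measured 42.7, 42.9 and 27.1 FPKM against 24.4, 56.1 and 40.3 FPKM, and Gpc1 0.764, 0.955 and 1.02 FPKM against 0.459, 0.754 and 1.13 FPKM. Their log2 differences were 0.05 (interval -0.72 to 0.83) and -0.12 (interval -0.54 to 0.30), both smaller than the spread between libraries.

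Cd44 measured 30.4, 39.3 and 64.4 FPKM in controls and 23.5, 52.2 and 40.7 FPKM in deleted libraries, with a log2 difference of -0.20 (interval -1.07 to 0.67). Hpse measured 6.51, 8.53 and 5.52 FPKM against 6.53, 8.52 and 6.39 FPKM, with a log2 difference of 0.06 (interval -0.36 to 0.48). Both intervals hold changes in either direction, and that of Cd44 is the wider. The Hpse values were close within the same-numbered pairs, most of all in the first and second.

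Has1 had 14, 11 and 21 reads in controls and 12, 41 and 21 reads in deleted libraries, and Has2 had 10, 9 and 22 against 8, 21 and 68 reads. The high sum of Has2 rested on the third deleted library and that of Has1 on the second, and the groups of both genes overlapped (exact permutation p = 0.3 and 0.6). By counting error alone the ratios were 1.67 for Has1 (interval 1.14 to 2.47) and 2.45 for Has2 (interval 1.69 to 3.63), and without those libraries they were 1.13 and 1.09. The counting intervals leave out the spread between libraries.

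**Figure D4:**
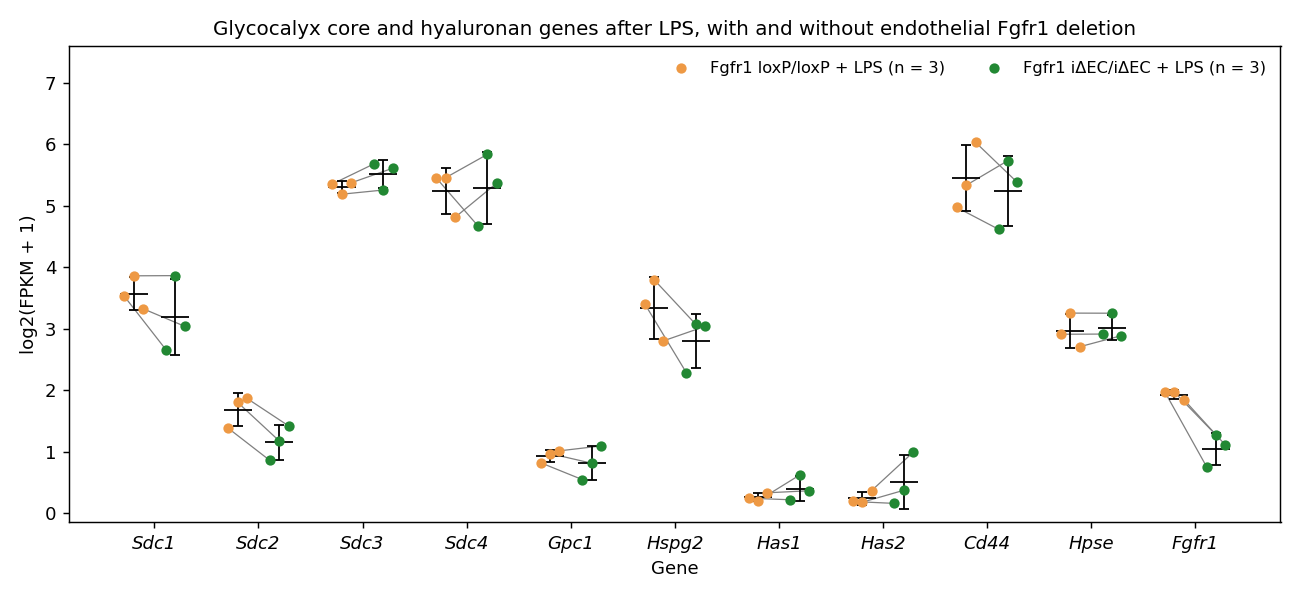
Level of the 10 genes and Fgfr1 after 2 mg/kg LPS, as log2(FPKM + 1), orange for Fgfr1 loxP/loxP (n = 3) and green for Fgfr1 iΔEC/iΔEC (n = 3), with the mean ± SD in black and grey lines joining libraries of the same number. Sdc2 falls and Sdc3 rises along all 3 lines, Fgfr1 shows separate groups, and the groups of all 10 genes overlap.

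The lists of related genes held 0 calls in limma as well, in 15 other core proteins, 21 genes of chain synthesis, 18 of removal and 11 of the hyaluronan list, with 0, 0, 1 and 1 genes at an unadjusted p under 0.05. Their median log2 differences were 0.20, 0.034, -0.00074 and 0.13. The leukocyte sums, 628, 855 and 758 FPKM in controls and 434, 1023 and 628 FPKM in deleted libraries, overlapped, and so did the neutrophil sums, with medians of 2529 and 1517 FPKM, and the macrophage sums, with medians of 1821 and 1739 FPKM. The epithelial sums had medians of 1734 and 904 FPKM and overlapped, all 10 epithelial markers were below 0 in log2 difference (median -0.73) and 3 had an unadjusted p under 0.05. The plasma cell sums had medians of 69.5 and 22.2 FPKM and did not overlap, with all 5 tested markers below 0 (median -0.63) and 2 at an unadjusted p under 0.05. All tested markers of the leukocyte (6), neutrophil (7), macrophage (8) and lymphocyte (6) lists were below 0 too, with medians of -0.21, -0.50, -0.18 and -0.42, and 0 of them had an unadjusted p under 0.05. The lymphocyte, mural and fibroblast sums overlapped, while the low mesothelial sums did not (5.94 to 7.70 against 4.94 to 5.34 FPKM). In every same-numbered pair the deleted library had lower epithelial, neutrophil, plasma cell, mural and mesothelial sums and a higher endothelial sum. The leukocyte, macrophage, lymphocyte and fibroblast sums went both ways within the pairs. All 11 endothelial markers had a mean above that of the controls, with a median log2 difference of 0.35, and 0 of them were called. Of the 11, 1 had an unadjusted p under 0.05 in limma. The groups did not overlap for 3 of them, all higher, beside 6.02% of all genes tested.

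Set side by side, the 7 members called with LPS had no call with Fgfr1 deletion. In that comparison 0 of 14945 genes were called, so the lack of a call is not particular to these members. The log2 difference was 2.53 and -0.20 for Cd44, 1.86 and 0.05 for Sdc4, 1.84 and 0.06 for Hpse, and 1.26 and -0.38 for Sdc1. For Sdc2 it was -1.36 and -0.53, and for Hspg2 -0.97 and -0.54. For Sdc3 it was 0.45, which turned to -0.018 under quantile normalization, and 0.21. For Gpc1, without a call in either, it was 0.17 and -0.12. The experiments differ in genotype and LPS dose and were scaled separately, so the difference between them was not tested.

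**Figure D5:**
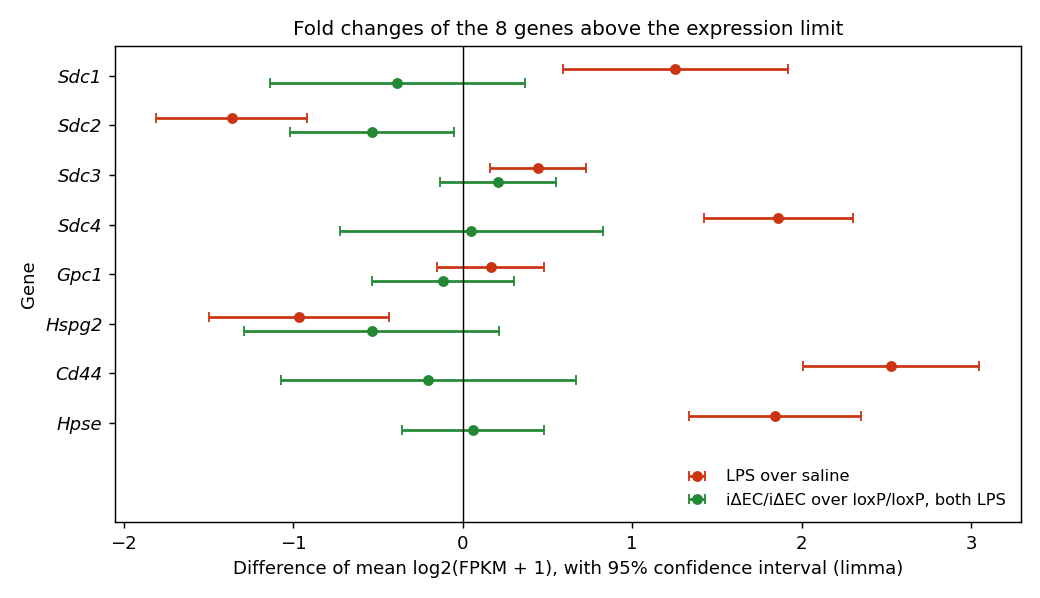
Difference of mean log2(FPKM + 1) of the 8 tested genes with its 95% confidence interval from limma, red for LPS over saline (4 and 6 libraries) and green for Fgfr1 iΔEC/iΔEC over Fgfr1 loxP/loxP, both with LPS (3 and 3 libraries). All red intervals but that of Gpc1 leave out 0, while the green ones include it for 7 of 8 genes. The red Sdc3 value is -0.018 under quantile normalization.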

How the data were processed

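RNA-seq libraries of bead-isolated mouse pulmonary ECs were analysed, 4 saline and 6 LPS libraries in 1 table and 3 Fgfr1 loxP/loxP and 3 Fgfr1 iΔEC/iΔEC libraries in another. The authors aligned reads to mm10 with HISAT2 (2.0.5), counted them with featureCounts (1.5.0-p3) and deposited FPKM with gene lengths. Strand setting and trimming are not given in the sources used here. The deposited FPKM are already scaled by median-of-ratios factors, and computing these again moved no library by more than 0.182%. Low FPKM values are multiples of 1 read, and 100.0% and 99.98% of values above 0 came within 0.02 of a whole read number, so reads per library are known. Depth was 13478726 to 19043015 reads on genes in the first table and 15969575 to 17002788 in the second.

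Each table was fitted alone with limma (3.58.1, R 4.3.3, eBayes with trend) on log2(FPKM + 1), keeping genes that averaged 0.5 FPKM or more. P-values were adjusted by Benjamini-Hochberg over all genes tested. Single genes were also compared by two-sided exact permutation tests over libraries. The scripts were tested on simulated data. Alternatives covered scaling, pseudocount, filter, limma-voom on read numbers, a fold limit, the replicate block and leaving out libraries; voom without a filter and the omission of saline 1 and saline 3 were added after seeing the data. The members and the gene lists were chosen with earlier results of these data known. Besides the members and Fgfr1, the text names the most abundant marker of each list described, markers listed at 0 in most libraries, an antisense gene that overlaps a member, up to 6 called genes with the largest change in each related list, and the 2 genes most correlated with each tested member. Of the hyaluronan list, 1 gene that this rule names is counted but not reported here. In the second experiment, same-numbered libraries deviated together (r = 0.248, 0.178 and 0.187), so that the numbers pair them as a hint from the data; in the first they did not. Promoter sequences are from RefSeq (GRCm38.p6), and Sdc2, Gpc1 and Has2 had no entry; an NF-kB motif was searched in 1 narrow spelling only, and its result is not used. Of 54532 identifiers, 54495 were found in GENCODE M21 and 53585 with the same start and end.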

Additional observations from a re-analysis of the deposited data

Results flagged for a closer look

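In the saline and LPS groups, 44 sets of values were searched for 1 library that stands off from its group, and 5 were found, where 1 in 20 by chance gives 2.2. The groups of 3 in the second experiment were too small for this search. Saline 1 was the highest saline library for Sdc4, at 4.35 log2(FPKM + 1) where the others lay between 3.55 and 3.66, and for Fgfr1, at 2.70 against 1.93 to 2.06. The mesothelial marker list was also highest in saline 1, with a mean of 1.17 log2(FPKM + 1) against 0.895 to 0.941. Saline 3 was lowest for the lymphocyte list, at 1.77 against 3.06 to 3.28, and for the plasma cell list, at 0.624 against 1.52 to 1.64.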

How the results depend on the processing

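With LPS, Sdc1, Sdc2, Sdc4, Cd44 and Hpse kept their direction and call under all 23 alternatives, with log2 differences of 1.08 to 1.93, -1.81 to -0.80, 1.55 to 2.58, 2.23 to 3.24 and 1.69 to 2.44. Gpc1 stayed without a call in all 23. Scaling on the endothelial markers shifted the median of all genes by 0.58 on the log2 scale (-0.25 in the second experiment) and scaling on total reads by -0.16, and changes are to be read relative to that. On the endothelial scale 7433 genes were called higher and 724 lower, with 35 and 5 of the related genes and 1 member lower. A fold limit of 1 left 1768 higher and 1011 lower, with 9 and 8 related genes and 1 member lower. Leaving out 1 library at a time gave 3815 to 4606 genes higher and 2890 to 3766 lower, 17 to 24 and 16 to 20 related genes, and 5 and 2 members in each run. Sdc3 was -0.018 under quantile normalization.

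The numbers did not pair the libraries of the first experiment (same-number r from -0.209 to 0.0972). There the replicate block gave 3438 genes higher and 2561 lower, and Sdc3 (adjusted p = 0.0724) and Fgfr1 (0.0557) lost their calls in limma. In the second experiment the block changed no call, and 0 genes were called under all 18 alternatives. Directions that turned there, all without a call, were Sdc4 with total reads (-0.013) and, with endothelial scaling, Sdc3 (-0.096), Sdc4 (-0.25) and Hpse (-0.21). Leaving out 1 library at a time gave -0.22 to 0.36 for Sdc4 (below 0 without loxP replicate 3 or iΔEC replicate 2), -0.45 to 0.11 for Cd44 (above 0 without loxP replicate 3 or iΔEC replicate 1), -0.065 to 0.21 for Hpse (below 0 without loxP replicate 3 or iΔEC replicate 2) and -0.25 to 0.019 for Gpc1 (above 0 without iΔEC replicate 1). The causes were not tested. Depth limits Has1 and Has2, for which voom without a filter gave log2 differences of 2.44 and 2.76 (adjusted p = 0.0534 and 0.0102), resting on saline counts at or near the floor of 3 reads.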
